A study of Mus musculus with 15 samples.

Results

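The Schlafen family was followed for a week from the start of intratumoral poly(I:C). This synthetic double-stranded RNA is sensed by Toll-like receptor 3 and cytosolic RNA helicases and leads to release of type I interferon. The 7 members, Slfn1, Slfn2, Slfn3, Slfn4, Slfn5, Slfn8 and Slfn9, were chosen by name from the 32544 gene entries of the count table, by family membership rather than by a threshold on values, and with earlier results of these data known. RNA came from 15 subcutaneous fibrosarcoma tumors of WEHI-164, a mouse line, in wild-type female BALB/c mice. The labels do not give their age, and the study gives an age range only for all its purchased mice together. The 3 day 0 tumors were untreated, and 3 tumors each were taken on days 1, 3, 5 and 7, counted from the start of daily intratumoral poly(I:C). With 6 planned daily doses, the day 7 tumors were taken after dosing had ended. The labels give 1 µg in 25 µL and 6 planned doses, while a legend in the study's supplement names a higher dose, so the dose is uncertain. No vehicle-injected tumors were analysed here, so treatment, injection and time of growth cannot be told apart. Each tumor came from its own mouse, and the time course was performed once, so p-values measure the spread between these tumors.

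Total counts per tumor ran from 23713090 to 31913106, and 3 counts corresponded to 0.094 to 0.127 CPM (counts scaled to the library total with TMM factors, which correct for composition). All 7 members passed the filter on low counts, as did 15494 genes in all. Of 3 further entries whose symbol begins with Slfn, the pseudogene Slfn10-ps also passed, and Slfn14 and Slfnl1 had at most 3 counts in a tumor. Day 3 replicate 1 stood apart from the other tumors, at 144.5 on the first principal component of log2 CPM against -77 to 45.1 for the rest. It also held the highest summed markers of skeletal muscle, adipocytes, B cells, T cells, NK cells, macrophages, neutrophils and fibroblasts. Its adipocyte markers summed to 269 CPM and its B cell markers to 33.95 CPM, against at most 59.2 and 6.43 CPM in the other tumors. Fibroblast and fibrosarcoma markers summed to at least 7325 CPM in every tumor. Vim alone ran from 2763 to 5165 CPM, while Thy1 ran from 8.07 to 243 CPM. The sum therefore shows that listed markers were present throughout, and it does not measure the amount of the labelled cell type. Bulk RNA cannot tell fewer cells of a type from less RNA per cell, and this holds for every level that follows.

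Schlafen genes were first described in developing mouse thymocytes, where their products restrain proliferation, and several of them are induced by type I interferon. Interferon bound to its receptor activates the kinases Jak1 and Tyk2 and a transcription factor complex that includes Stat2 and Irf9 and binds interferon-stimulated response elements (ISREs) in target promoters. Slfn1 and Slfn2 encode short proteins, Slfn3 and Slfn4 proteins of intermediate length, and Slfn5, Slfn8 and Slfn9 long proteins with a helicase-like domain. Slfn2 is known for keeping T cells and monocytes quiescent, Slfn4 for its expression in activated macrophages and other myeloid cells, and human SLFN5 as an interferon-induced nuclear protein.

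The members formed 1 cluster of 263.8 kb on the reference chromosome, chr11:82951349-83215154 (GRCm38, GENCODE M21). In order along the plus strand these were Slfn5 (chr11:82951349-82964840, plus), Slfn9 (chr11:82978390-82991830, minus), Slfn8 (chr11:83002158-83020810, minus), Slfn2 (chr11:83065112-83070678, plus), Slfn1 (chr11:83116849-83122670, plus), Slfn4 (chr11:83175186-83190216, plus) and Slfn3 (chr11:83191330-83215154, plus). All are annotated as protein coding. Slfn10-ps lies between Slfn8 and Slfn2. Near-identical sequence makes the division of reads between some members uncertain. Of all stretches of 31 bases in a member's transcripts, the share also found in another gene was lowest for Slfn1, at 1.96%, and highest for Slfn3, at 30.89%. Slfn8 shared 19.1% of its stretches with Slfn9, and Slfn3 shared 15.14% with Slfn4. Slfn5 shared 7.99% with its antisense gene Slfn5os, and Slfn2 is also overlapped by an antisense gene. Whether counting used strand was not given in the sources used here.

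Promoter windows from RefSeq (250 bases before to 50 after each start site, GRCm38.p6) were found for all 7 members and searched on both strands for an ISRE core, GAAANNGAAA, and for a GAS core, TTCNNNGAA, an interferon-gamma-activated sequence. The ISRE core was present in 3.44% of 32851 mouse promoter windows and the GAS core in 8.3%. An ISRE core stood in the windows of Slfn5, Slfn8 and Slfn9, and in none of those of Slfn1, Slfn2, Slfn3 and Slfn4. No member window held the GAS core. The upstream stretches of Slfn8 and Slfn9 are shown because these neighbours carry the same match, that of Slfn5 as the remaining match, and that of Slfn4 because its level differed most between days. Each is 130 bases, read 5′ to 3′ along the strand of its gene, with the ISRE core in capitals. The Slfn8 stretch is chr11:83020811-83020940 (minus), the Slfn9 stretch chr11:82991831-82991960 (minus), the Slfn5 stretch chr11:82951852-82951981 (plus) and the Slfn4 stretch chr11:83175056-83175185 (plus).

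Slfn8: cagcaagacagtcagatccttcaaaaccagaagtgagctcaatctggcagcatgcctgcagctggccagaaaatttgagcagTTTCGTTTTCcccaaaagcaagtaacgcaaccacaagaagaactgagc
Slfn9: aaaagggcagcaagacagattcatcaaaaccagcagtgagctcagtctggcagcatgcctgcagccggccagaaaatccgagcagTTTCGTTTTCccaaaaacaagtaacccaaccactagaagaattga
Slfn5: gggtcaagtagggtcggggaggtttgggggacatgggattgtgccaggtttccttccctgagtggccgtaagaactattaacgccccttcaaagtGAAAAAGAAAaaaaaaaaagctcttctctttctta
Slfn4: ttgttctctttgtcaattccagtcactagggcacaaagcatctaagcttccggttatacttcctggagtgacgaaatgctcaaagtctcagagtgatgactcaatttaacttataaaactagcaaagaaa

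In Slfn8 and Slfn9 the matched letters were identical and began 48 and 45 bases before the start site, on the strand opposite to the gene. Slfn8 also had a second start site, and the same match began 136 bases before that one. In Slfn5 the match lay 155 bases upstream, on the strand of the gene, in a run rich in A. Over these stretches Slfn8 and Slfn9 were identical at 110 of 133 aligned positions (82.7%). Over the whole windows they were identical at 80.7% of positions for the first Slfn8 window and at 47.2% for its second. Every other pair of members was at 50.6% or less. A match of letters is a description of the reference sequence and was not tested for binding.

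In these tumors 5 members, Slfn1, Slfn2, Slfn4, Slfn5 and Slfn8, had higher levels in all 3 tumors of day 3 than in any untreated tumor. The same held for 19.4% of all genes. On day 7 these 5 had fitted levels of 0.831 (Slfn5) to 1.285 (Slfn4) times those of day 0. The largest difference was that of Slfn4, with a mean of 43.0 ± 2.91 CPM on day 0, 260 ± 145 CPM on day 3 and 55.2 ± 30.96 CPM on day 7 (SD, n = 3). The other 2 members, Slfn3 and Slfn9, stayed within a narrow range in most tumors. Their lowest values were both in day 3 replicate 1.

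**Figure D1:**
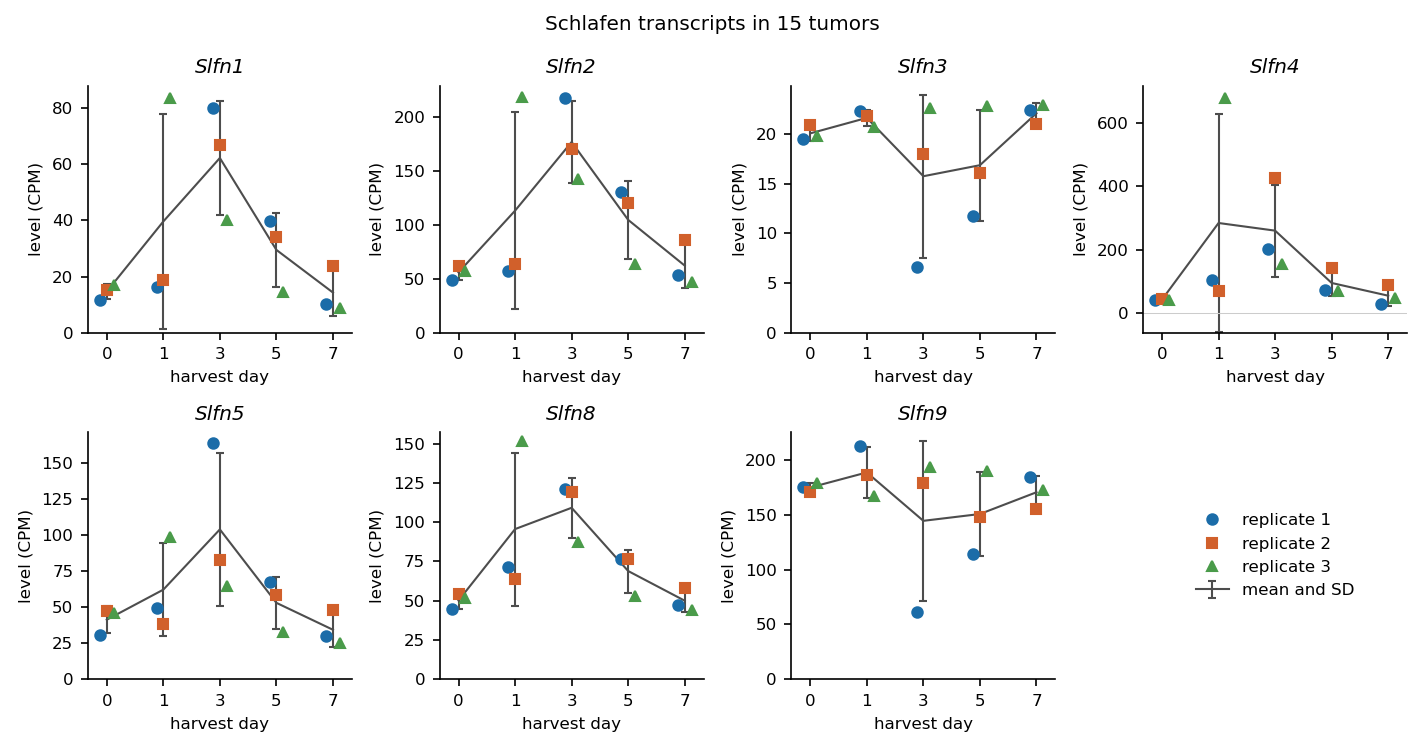
Level of each member in CPM (vertical axis) by harvest day (horizontal axis). Symbols are the 3 tumors of a day, marked by replicate number, and the grey line joins day means with bars of 1 SD. Slfn1, Slfn2, Slfn4, Slfn5 and Slfn8 are highest in day 1 replicate 3 or on day 3, while Slfn3 and Slfn9 are lowest in day 3 replicate 1, at 6.65 and 60.9 CPM.

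Among the short members, Slfn1, a growth-restraining gene of thymocytes, stood at 11.6, 15.3 and 17.02 CPM in the untreated tumors and at 16.4, 18.6 and 83.9 CPM on day 1. It was at 80.0, 66.8 and 40.2 CPM on day 3, at 39.8, 34.3 and 14.5 CPM on day 5, and at 10.3, 23.8 and 8.78 CPM on day 7 (replicates 1, 2 and 3 throughout). Day 1 was thus divided, with 2 tumors close to the untreated ones and replicate 3 as high as the highest tumor of day 3. Slfn2, the quiescence gene, had the same shape. Its levels were 48.5, 61.9 and 57.6 CPM on day 0, 57.2, 63.5 and 219 CPM on day 1, and 218, 171 and 143 CPM on day 3. On day 5 it stood at 131, 120.0 and 63.5 CPM and on day 7 at 53.6, 86.2 and 47.0 CPM, so that all 3 tumors of day 5 were still above the untreated ones. Over the 15 tumors the log2 levels of Slfn1 and Slfn2 had a Pearson r of 0.985, and the 2 genes share 0.05% of their 31-base stretches (share of those of Slfn1).

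Of the intermediate members, Slfn4, the myeloid gene, stood at 41.6, 46.3 and 41.0 CPM on day 0 and at 105, 69.0 and 679.8 CPM on day 1. All 3 tumors of day 1 were above the untreated ones, and replicate 3 was the highest of the series. On day 3 its levels were 201, 426 and 154 CPM, on day 5 they were 74.1, 143 and 68.7 CPM, and on day 7 they were 29.5, 89.6 and 46.7 CPM. Slfn3, its neighbour downstream, has been studied in T cells and in differentiation of the gut epithelium. It kept to 19.5 to 20.9 CPM on day 0, 20.8 to 22.4 CPM on day 1 and 21.0 to 23.0 CPM on day 7. On day 3 it was at 6.65, 18.0 and 22.6 CPM and on day 5 at 11.7, 16.1 and 22.9 CPM. The lowest 2 values came from day 3 replicate 1 and day 5 replicate 1, the 2 tumors with the most T cell and macrophage marker RNA, at 499.6 and 373 CPM of summed T cell markers.

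Of the long members, Slfn8 stood at 44.4, 54.3 and 51.5 CPM on day 0, at 71.5, 63.6 and 152 CPM on day 1, and at 121, 119 and 87.2 CPM on day 3. It was at 76.8, 76.7 and 53.1 CPM on day 5 and at 47.5, 58.3 and 44.1 CPM on day 7. Slfn8 was therefore above the untreated range in every tumor of days 1 and 3, and the differences were smaller than those of Slfn4. Slfn5 was at 30.5, 47.4 and 45.6 CPM on day 0, at 49.2, 38.2 and 98.7 CPM on day 1 and at 164, 82.7 and 64.8 CPM on day 3. Its highest level was in day 3 replicate 1, the tumor with the most macrophage and T cell marker RNA. On day 5 its levels were 67.5, 58.2 and 32.9 CPM and on day 7 they were 29.9, 47.8 and 24.9 CPM.

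Slfn9, the paralog beside Slfn8, did not share this pattern. It was at 175, 171 and 179 CPM on day 0, at 213, 186 and 167 CPM on day 1 and at 184, 155 and 173 CPM on day 7. On day 3 the levels were 60.9, 179 and 194 CPM and on day 5 they were 114, 148 and 190.1 CPM. The low value of day 3 came from replicate 1 alone. The pseudogene Slfn10-ps, which is not a member, stood at 13.2 to 15.3 CPM on day 0 and was also low in that tumor, at 6.65 CPM. In day 3 replicate 1, summed skeletal muscle markers reached 3252 CPM against at most 179 CPM in the other tumors, and fibroblast and fibrosarcoma markers 18380 CPM against at most 11160 CPM. The part of these in the low Slfn3 and Slfn9 values was not tested.

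The comparisons of each treated day with day 0 asked when the members changed after the first dose, and the 4 comparisons share the same untreated tumors. On day 1 the fitted log2 fold change was largest for Slfn4, at 2.73 ± 0.72 (SE), followed by Slfn1 at 1.44 ± 0.60, Slfn2 at 1.02 ± 0.45 and Slfn8 at 0.93 ± 0.28. Slfn5 was at 0.59 ± 0.43, and Slfn3 and Slfn9 were both at 0.11. No member was called at an adjusted p under 0.05 by edgeR (0% of all genes were) or by DESeq2 (0.258%). At an unadjusted p under 0.05, edgeR counted 4 members, Slfn1, Slfn2, Slfn4 and Slfn8, against 3.16% of all genes. In 2 members, Slfn4 and Slfn8, the 3 tumors of day 1 lay above all untreated ones, as they did for 5.76% of all genes. These estimates rested in large part on day 1 replicate 3. Without it the log2 fold change was 1.02 for Slfn4, 0.43 for Slfn8, 0.26 for Slfn1, 0.11 for Slfn2 and 0.09 for Slfn5, and only Slfn8 kept an unadjusted p under 0.05 (0.0467).

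On day 3 the log2 fold changes were 2.60 ± 0.72 for Slfn4, 2.09 ± 0.60 for Slfn1, 1.66 ± 0.45 for Slfn2, 1.34 ± 0.43 for Slfn5 and 1.12 ± 0.28 for Slfn8, or 6.06-, 4.26-, 3.17-, 2.52- and 2.18-fold. Slfn3 was at -0.35 ± 0.33 and Slfn9 at -0.28 ± 0.32. The 5 higher members did not reach the threshold in edgeR's quasi-likelihood test, with an adjusted p of 0.115 each and 0% of all genes called. Their unadjusted p-values ran from 0.00182 for Slfn8 to 0.00888 for Slfn5, and 30% of all genes had an unadjusted p under 0.05 in this comparison. DESeq2 called the same 5, with adjusted p from 0.0113 for Slfn8 to 0.0277 for Slfn5, against 12.9% of all genes. All 5 also had groups that did not overlap, as 19.4% of all genes did in the upward direction. Without day 3 replicate 1 the values were 1.88 for Slfn1, 1.49 for Slfn2, 2.76 for Slfn4, 0.85 for Slfn5 and 1.047 for Slfn8, and those of Slfn3 and Slfn9 were 0.02 and 0.09. DESeq2 then called none of the members and 0.553% of all genes, so the count of calls was lower over all genes too. Without day 1 replicate 3, edgeR called Slfn2, Slfn4 and Slfn8, with adjusted p of 0.0350, 0.0434 and 0.0282, and 0.395% of all genes.

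**Figure D2:**
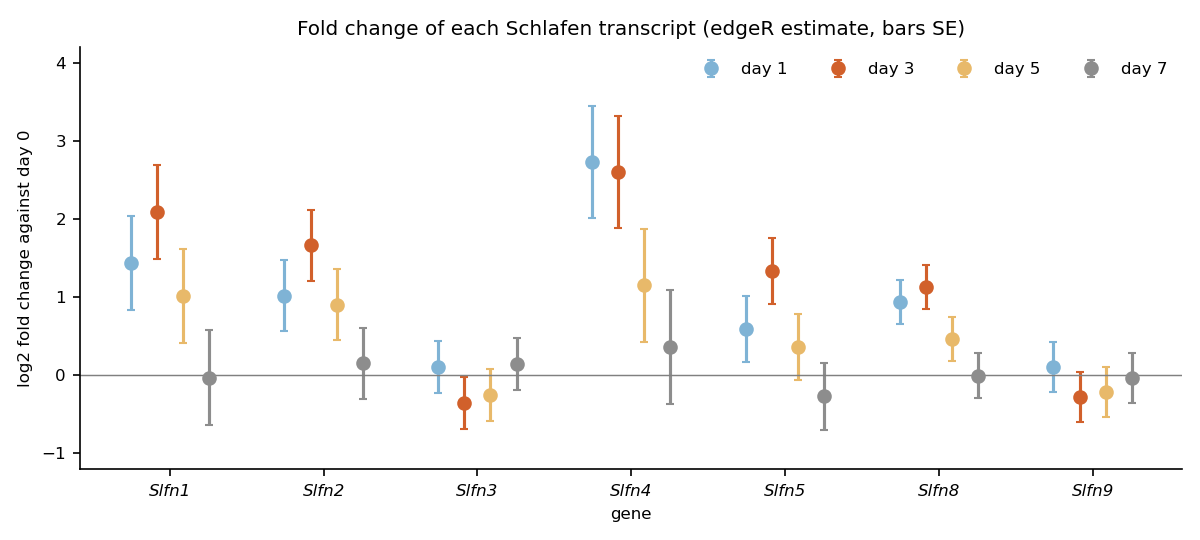
Log2 fold change against the untreated tumors (vertical axis) of each member (horizontal axis) on days 1, 3, 5 and 7. Points are edgeR estimates and bars 1 SE. Slfn4 has the largest estimates, 2.73 on day 1 and 2.60 on day 3, and all 7 members lie between -0.27 and 0.36 on day 7.

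By day 5 the estimates were smaller, at 1.15 ± 0.72 for Slfn4, 1.01 ± 0.60 for Slfn1, 0.90 ± 0.45 for Slfn2, 0.46 ± 0.28 for Slfn8 and 0.36 ± 0.43 for Slfn5. No member passed in edgeR, adjusted (0% of all genes) or unadjusted (4.8%), and none in DESeq2 (0.071%). At an unadjusted p under 0.05, DESeq2 counted only Slfn2 (0.0448). The day 5 tumors lay above the untreated ones for 2 members, Slfn2 and Slfn4, against 6.89% of all genes. On day 7 the estimates ran from -0.27 ± 0.43 for Slfn5 to 0.36 ± 0.72 for Slfn4. No member passed on day 7 in edgeR, adjusted (0% of all genes) or unadjusted (2.07%), or in DESeq2 (0.0323%). Only Slfn3 had day 7 tumors above all untreated ones, a pattern shown by 5.02% of all genes, with a log2 fold change of 0.14 ± 0.33.

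The comparison of day 7 with day 3 asked whether the levels of day 3 lasted, and it separated the same 5 members. Dosing had ended by day 7, so a fall under continued dosing cannot be told apart from a fall after the last dose. Their log2 differences, day 7 minus day 3, were -2.24 ± 0.72 for Slfn4, -2.12 ± 0.60 for Slfn1, -1.60 ± 0.43 for Slfn5, -1.51 ± 0.45 for Slfn2 and -1.13 ± 0.28 for Slfn8. In edgeR the adjusted p-values were 0.0857 for Slfn4 and 0.0832 for the other 4, with 0% of all genes called and 35.5% at an unadjusted p under 0.05, among them these 5. DESeq2 called all 5, with adjusted p from 0.00974 for Slfn8 to 0.0308 for Slfn4, against 21% of all genes. The groups did not overlap in any of the 5, as in 18.4% of all genes in the downward direction. Slfn3 and Slfn9 were at 0.49 ± 0.33 and 0.24 ± 0.32. Without day 3 replicate 1, DESeq2 called none of the 5 and 0.605% of all genes. This comparison shares its day 3 tumors with that of day 3 against day 0.

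Between day 1 and day 3 no member passed, either adjusted in edgeR (0% of all genes), unadjusted in edgeR (18.4%) or in DESeq2 (0.181%). The estimates, day 3 minus day 1, were 0.74 ± 0.42 for Slfn5, 0.65 ± 0.60 for Slfn1, 0.64 ± 0.45 for Slfn2, 0.19 ± 0.28 for Slfn8 and -0.13 ± 0.72 for Slfn4. Day 1 replicate 3 set the Slfn4 value. Without that tumor it was 1.59, and DESeq2 called Slfn1, Slfn2, Slfn4, Slfn5 and Slfn8 along with 12.9% of all genes. The joint test of the 4 treated days gave an adjusted p of 0.292 for these 5 members in edgeR, with 0% of all genes called and 16.2% at an unadjusted p under 0.05, including all 5. DESeq2's likelihood ratio test called the 5, with adjusted p from 0.00639 for Slfn8 to 0.0330 for Slfn5, against 7.59% of all genes. Without day 3 replicate 1 the only member it called was Slfn8, with 1.18% of all genes. Slfn3 and Slfn9 had unadjusted p of 0.521 and 0.743 in edgeR.

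Levels of different genes were compared as CPM per kb of merged exons. In the untreated tumors Slfn2 ranked highest, at 33.6 ± 4.11 CPM per kb, followed by Slfn9 at 29.3 ± 0.65, Slfn8 at 12.2 ± 1.26, Slfn4 at 10.8 ± 0.73, Slfn1 at 7.85 ± 1.47, Slfn5 at 6.51 ± 1.47 and Slfn3 at 5.89 ± 0.22. Neighbours in this order overlapped between tumors, except that Slfn9 was above Slfn8 and Slfn4 above Slfn1 in every tumor. On day 3 Slfn2 was at 107 ± 22.9, Slfn4 at 65.7 ± 36.6 and Slfn1 at 33.4 ± 10.9 CPM per kb. Slfn4 had moved from the fourth to the second place, and Slfn9, at 24.2 ± 12.2, from the second to the fifth, although neighbouring ranks overlapped apart from Slfn5 (16.4 ± 8.35) above Slfn3 (4.62 ± 2.41). The day 3 mean of Slfn9 was lowered by replicate 1, at 10.2 CPM per kb, while its highest tumor was at 32.5. The rank without that tumor was not computed. On day 7 Slfn2 and Slfn9 were again the leading members, at 37.4 ± 12.6 and 28.6 ± 2.45 CPM per kb. The same 5 of 7 ranks on days 0 and 7, and all 7 on the other days, were found with the length of the longest transcript.

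**Figure D3:**
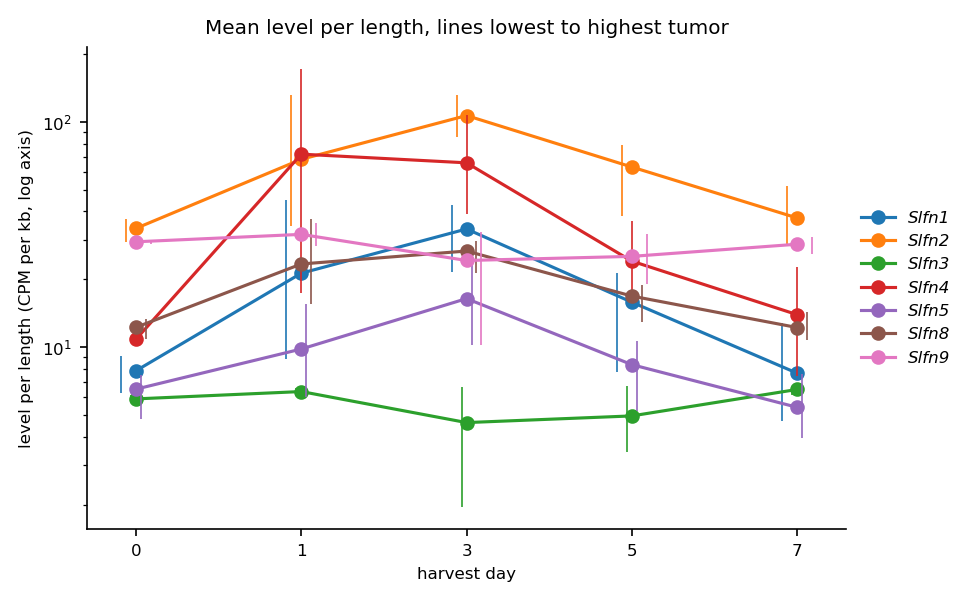
Mean level per length in CPM per kb on a log axis (vertical) by harvest day (horizontal). Points are means of 3 tumors, joined by lines, and thin vertical lines run from the lowest to the highest tumor. Slfn2 leads on days 0, 3, 5 and 7, and Slfn4 stands at 10.8 CPM per kb on day 0 and 71.8 on day 1, with a range of 17.4 to 172 on day 1.

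Paralogs side by side in the cluster differed in their course. The ratio of Slfn8 to Slfn9, in CPM, was 0.253 to 0.318 in the untreated tumors and 0.336, 0.342 and 0.909 in those of day 1. On day 3 it was 1.99, 0.666 and 0.450, all above the untreated range, and on day 7 it was 0.258, 0.376 and 0.255. The ratio of Slfn4 to Slfn3 was 2.07 to 2.21 on day 0, 4.69, 3.16 and 32.8 on day 1, and 30.3, 23.6 and 6.81 on day 3. On day 7 it was 1.31, 4.27 and 2.03. Slfn4 made up 9.97% to 11.2% of the family's CPM in untreated tumors and 47.8% in day 1 replicate 3, where the summed family level was 1421 CPM against 371 to 417 CPM on day 0. Over the 15 tumors the log2 levels of Slfn8 and Slfn9 had an r of -0.405 and those of Slfn3 and Slfn4 an r of -0.265, despite the sequence each pair shares, while Slfn3 and Slfn9, which share no 31-base stretch, had an r of 0.966. Slfn3 and Slfn9 were both lowest in day 3 replicate 1 and next lowest in day 5 replicate 1. Their r was not recomputed without these tumors. All of these correlations are descriptions over tumors that share harvest days.

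**Figure D4:**
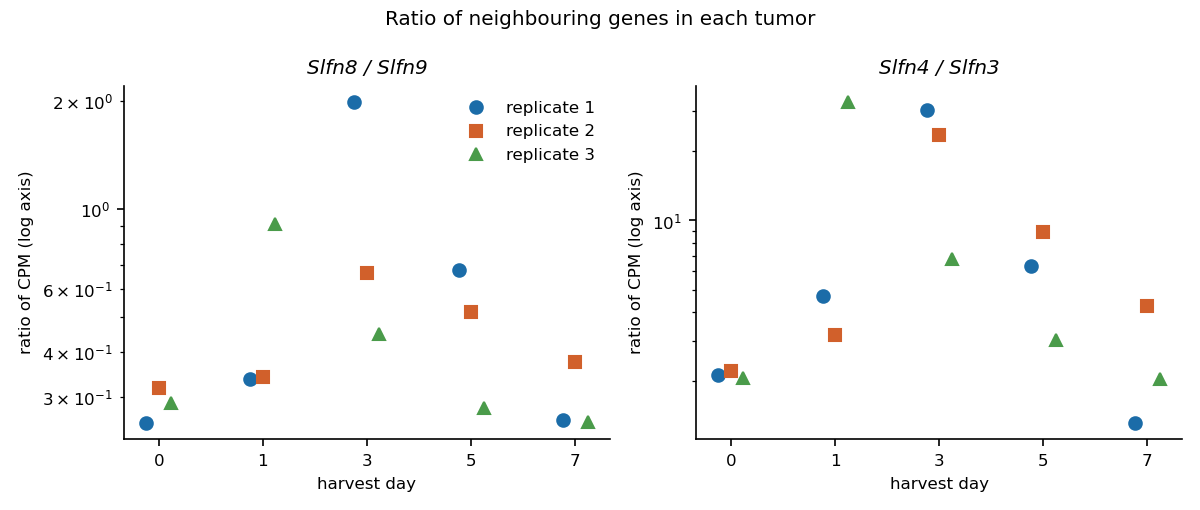
Ratio of Slfn8 to Slfn9 (left) and of Slfn4 to Slfn3 (right), in CPM on log axes (vertical), by harvest day (horizontal). Symbols are tumors, marked by replicate number. The ratios are highest in day 3 replicate 1 for Slfn8 to Slfn9, at 1.99, and in day 1 replicate 3 for Slfn4 to Slfn3, at 32.8.

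For each member the 3 genes outside the family with the most similar profile were taken by Pearson r of log2 CPM over the 15 tumors. Slfn4 was nearest to Oasl1 (0.981), Oas1a (0.968) and Ifi44 (0.959), of which the Oas genes encode 2′-5′-oligoadenylate synthetase family proteins. Slfn8 was nearest to Trim30a (0.994), a TRIM protein gene, Ly6e (0.988), which encodes a surface protein, and H2-T24 (0.987), a class Ib histocompatibility gene. Slfn5 was nearest to Ifi205 (0.989), a gene of the interferon-inducible p200 family of DNA sensors, Iqgap2 (0.974) and Mif4gd (0.974). Slfn1 was nearest to PYHIN1 (0.988, spelled as in the table), of the same p200 family, Cfb (0.986), which encodes complement factor B, and B430306N03Rik (0.985). Slfn2 was nearest to Pde1b (0.981), a phosphodiesterase gene, Blvrb (0.980), a biliverdin reductase gene, and Pnp (0.979), which encodes purine nucleoside phosphorylase. Slfn3 was nearest to Phex (0.967), Epb41l4a (0.955) and Eif2ak4 (0.953), and Slfn9 to Tmem209 (0.971), Ccdc14 (0.970) and Sema3a (0.962). The genes nearest to Slfn3 and Slfn9 thus included none of the interferon lists, and neither did those nearest to Slfn1, Slfn2 and Slfn5. Those nearest to Slfn4 and Slfn8 included Oasl1, Oas1a, Ifi44 and Trim30a from the effector list. The nearest genes were picked for their r, which is a description.

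The interferon pathway was read from a list of 17 genes, 16 of them tested. Irf7, the interferon-induced regulator that amplifies interferon production, was at 80.9 ± 18.7 CPM on day 0 and 500 ± 122 CPM on day 3, and its log2 fold changes were 2.63 ± 0.48 (day 3) and 0.22 ± 0.48 (day 7). Stat2 was at 0.96 ± 0.30 on day 3, Irf9 at 0.58 ± 0.17 and Tlr3, the receptor of the injected RNA, at 0.75 ± 0.22. These 4 had an adjusted p of 0.115 each in edgeR. On day 3, 15 of the 16 were higher and 1 lower, with a median of 0.62 against -0.03 for all genes, from Irf7 at 2.63 to Mavs at -0.10. DESeq2 called 8 of them higher, against 12.9% of all genes called, and 10 were higher at an unadjusted p under 0.05, against 30% of all genes. All 28 genes of the interferon effector list were higher on days 1 and 3, with medians of 1.42 and 1.15, and on day 3 they ran from Oas3 at 1.81 to Eif2ak2 at 0.29, with 25 at an unadjusted p under 0.05 and 20 called by DESeq2, to be read against the same 30% and 12.9%. On day 1 all 28 had an unadjusted p under 0.05 in edgeR, against 3.16% of all genes, and DESeq2 called 16 of them, against 0.258%. On day 7 16 of the 28 were higher and 12 lower, with a median of 0.02. No gene of any list was called at an adjusted p under 0.05 by edgeR.

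Markers of other cell types were read in the same way, against the 12.9% of all genes that DESeq2 called on day 3, which was 0.553% without day 3 replicate 1. DESeq2 called 11 of 16 T cell genes higher and Tcf7 lower (median log2 fold change 2.03, from Trbc1 at 2.44 to Tcf7 at -0.85), 4 of 9 NK cell genes higher (2.11, from Klrd1 at 2.56 to Prf1 at 1.00) and 11 of 14 macrophage and monocyte genes higher (1.44, from Ly6c2 at 2.34 to Mrc1 at -0.39). It called 1 of 6 neutrophil genes (1.25, from Csf3r at 2.10 to Mmp9 at -0.29) and 2 of 5 B cell genes (1.46, from Blk at 3.81 to Cd79a at 0.96). None of 8 skeletal muscle genes (3.02, from Myh1 at 3.78 to Myh4 at 2.40), 5 adipocyte genes (1.97, from Adipoq at 2.99 to Plin4 at 0.98) or 5 erythroid genes (0.12, from Hba-a2 at 0.69 to Alas2 at -0.89) was called. In the fibroblast and fibrosarcoma list 1 of 8 was called higher and 1 lower (0.68, from Col1a2 at 2.68 to Fn1 at -0.90). Summed macrophage and monocyte markers were 2874 to 3456 CPM on day 0 and 12510, 5370 and 5529 CPM on day 3, and summed T cell markers 174 to 190 CPM and 499.6, 233 and 229 CPM. Tcf7 weighed most in the T cell sums, with a median of 89.4 CPM over all tumors against at most 11.2 CPM (Trbc2) for the other T cell genes. These sums therefore follow Tcf7 more than the rest of the list. In day 1 replicate 3, where Slfn4 was highest, effector genes summed to 8204 CPM, above every other tumor, and the pathway genes to 3748 CPM, also the highest. Macrophage and monocyte markers there summed to 4961 CPM, NK cell markers to 296 CPM (99.1 to 144 on day 0), neutrophil markers to 157 CPM (60.5 to 97.3), erythroid markers to 124 CPM (9.49 to 22.0) and T cell markers to 199 CPM. The part of cell composition in the member levels was not tested.

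Members were then set against the level of each list (mean log2 CPM of its tested genes) over the 15 tumors, with permutation p-values adjusted over all 77 pairs of member and list. The permutations exchanged tumors freely between harvest days. Their p-values therefore do not separate a course over days shared by member and list from a relation within days. Slfn8 followed the interferon pathway list most closely, with r = 0.987 and rho = 0.993 (permutation p = 1e-05 for both, the smallest that 100000 permutations can give, adjusted 7e-05 and 0.00011). Without the 2 tumors farthest from the median list level r was 0.978, and for deviations from day means it was 0.973. Slfn4 followed the effector list, with r = 0.95 and rho = 0.893 (permutation p = 1e-05 and 3e-05, adjusted 7e-05 and 0.000192), and r was 0.865 without the 2 farthest tumors and 0.932 for deviations. With T cell markers Slfn4 had r = 0.598 and rho = 0.654 (permutation p = 0.0183 and 0.0101, adjusted 0.0257 and 0.0173), with 0.727 without the 2 farthest tumors and 0.468 for deviations.

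Slfn5 showed the reverse order, with r = 0.902 and rho = 0.875 for T cell markers (permutation p = 2e-05 and 7e-05, adjusted 0.000128 and 0.000359; 0.883 without the 2 farthest tumors, 0.921 for deviations). For the effector list it had r = 0.72 and rho = 0.846 (permutation p = 0.00285 and 0.00017, adjusted 0.00522 and 0.000727; 0.677 and 0.541). T cell markers were not its closest list, as its r with macrophage and monocyte markers was 0.928, the highest of any member with that list. Its r with the interferon pathway list was also above that with the effector list. The differences between these coefficients were not tested, and list levels are themselves correlated. Slfn1 and Slfn2 had r of 0.955 and 0.927 with the pathway list, 0.896 and 0.907 with macrophage markers and 0.879 and 0.876 with T cell markers, with rho from 0.839 to 0.964, adjusted permutation p of 0.000203 or less for r and 0.00077 or less for rho, and r of 0.864 or more without the 2 farthest tumors. Slfn3 and Slfn9 had no relation with the effector list (r = -0.142 and -0.075, rho = -0.254 and 0.046, adjusted permutation p of 0.652 and 0.801 for r, 0.389 and 0.873 for rho) that passed the threshold. With the T cell, NK cell, macrophage and neutrophil lists, in this order, Slfn3 had r of -0.788, -0.677, -0.777 and -0.612 (rho -0.711, -0.721, -0.575 and -0.675, adjusted permutation p at most 0.0115 for r and 0.0440 for rho). Without the 2 farthest tumors these r were -0.597, -0.618, -0.461 and -0.683. Slfn9 had r of -0.724, -0.607, -0.755 and -0.585 with the same lists (rho -0.514, -0.493, -0.429 and -0.593, adjusted permutation p at most 0.0152 for r, but 0.0772, 0.0907, 0.139 and 0.0361 for rho). Without the 2 farthest tumors these were -0.348, -0.584, -0.502 and -0.568. Both were also negatively related to fibroblast and fibrosarcoma markers, with r of -0.871 and -0.838, rho of -0.721 and -0.568 (adjusted permutation p 0.00077 and 0.00279 for r, 0.00713 and 0.0469 for rho), and r of -0.704 and -0.715 without the 2 farthest tumors. With B cell markers their r of -0.854 and -0.827 (rho -0.532 and -0.396, adjusted permutation p 0.00275 and 0.00668 for r, 0.0687 and 0.175 for rho) went to -0.278 and -0.064 without the 2 farthest tumors, so those relations rested on these tumors. In all, 56 of 77 pairs had an adjusted permutation p under 0.05, none of them with erythroid markers and 1 with skeletal muscle markers, Slfn5, whose r of 0.612 (rho 0.454, adjusted permutation p 0.0227 and 0.123) went to 0.182 without the 2 farthest tumors.

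**Figure D5:**
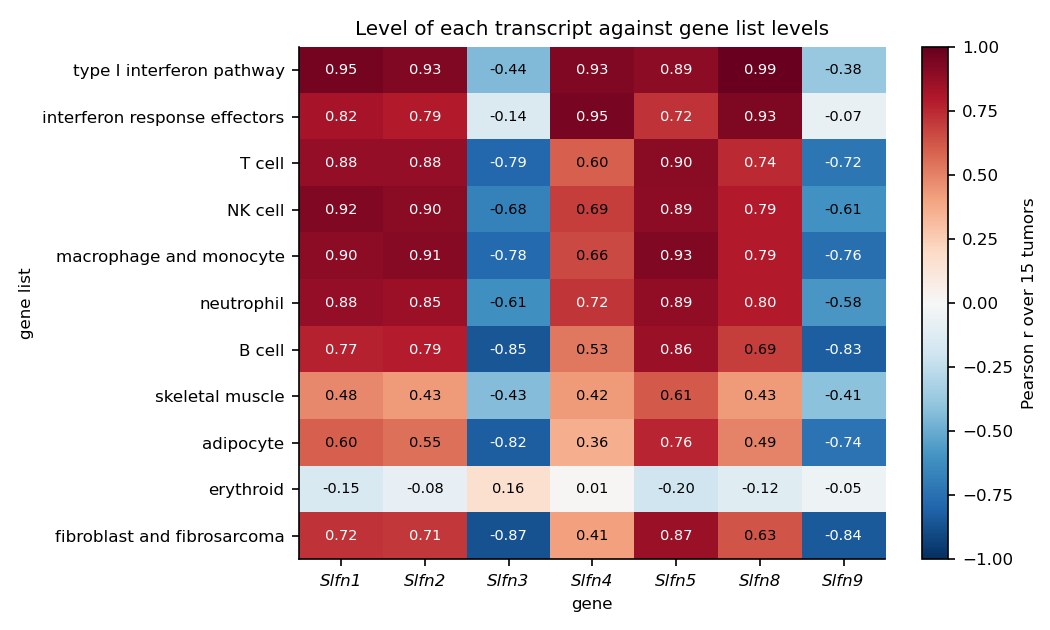
Pearson r over 15 tumors between the log2 level of each member (horizontal axis) and the mean log2 level of each gene list (vertical axis), with the value printed in each cell and red for positive and blue for negative r. Slfn1, Slfn2, Slfn4, Slfn5 and Slfn8 are positive with both interferon lists, from 0.72 to 0.99, and Slfn3 and Slfn9 are negative with the same lists, from -0.44 to -0.08.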

How the data were processed

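Poly(A) RNA was sequenced by the authors as 100 base single-end Illumina reads, checked with FastQC 0.11.3, quantified with kallisto 0.43.0 and summed to genes with tximport on mm10 (GRCm38). The deposited values are estimated counts of each gene, rounded to integers, in 1 column per tumor. The transcript set is not given in the sources used here. kallisto divides reads shared by paralogs, so counts of near-identical members are uncertain.

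Tumors were grouped by the time point label. One entry turned into a date (at most 0.0268% of a tumor's counts) was left out, and 31401 symbols matched GENCODE M21. Genes with CPM above 0.366 in at least 3 tumors were tested, 15494 in all, with edgeR 4.0.16 (R 4.3.3): TMM factors, a quasi-likelihood F test (two-sided) with harvest day as the term over all 15 tumors, and Benjamini-Hochberg adjustment over all genes tested. DESeq2 1.42.0 was an alternative because no test was stated for the time course. Log2 CPM used a prior count of 2. Floors of 3 counts cover counting error only. The fits were tested on simulated counts with known fold changes. Alternatives covered size factors, filters, spread estimate, samples fitted, a replicate block and leaving out tumors.

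Named genes were all 7 members, the 3 genes nearest to each by correlation, the genes with the highest and lowest log2 fold change of each list on day 3, and Irf7, Stat2, Irf9 and Tlr3 of the pathway list, of which 1 further gene is not reported here. The 11 lists covered the type I interferon pathway, interferon effectors, and T cell, NK cell, macrophage and monocyte, neutrophil, B cell, skeletal muscle, adipocyte, erythroid, and fibroblast and fibrosarcoma markers. Members and lists were chosen with earlier results of these data known. Promoter windows came from RefSeq on GRCm38.p6. Within-day exact permutation (7776 orders) served for deviations from day means.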

Additional observations from a re-analysis of the deposited data

How the results depend on the processing

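Of 1092 fold changes of members recomputed under alternatives, 1006 kept their direction and side of the threshold, 45 passed it where the reported fit did not, and 41 changed sign. The sign changes concerned 10 of 42 fold changes, none over 0.362 in size (log2) as reported, and the cause was not tested. edgeR called 0 members in all 7 comparisons, also with DESeq2's size factors, no filter, edgeR's own filter, a robust spread estimate and, for the 6 comparisons of days, only the compared days in the fit. DESeq2 called 5 members on day 3 against day 0 (12.9% of all genes), on day 7 against day 3 (21%) and in the joint test (7.59%). With 1 tumor left out at a time, edgeR called 0 to 3 members on day 3 against day 0 and 0 to 3 on day 7 against day 3 and 0 elsewhere. The 3 on day 3 came without day 1 replicate 3, where 0.395% of all genes were called. On day 7 against day 3, 3 members (13.6% of all genes) were called without day 3 replicate 3 and 1 (0.375%) without day 1 replicate 3. A day left with 2 tumors is assumed to vary like the others. Without both day 3 replicate 1 and day 1 replicate 3, edgeR called 2 (0.463% of all genes) and 1 (0.391%).

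Alternatives chosen after seeing the data ran DESeq2 without these tumors. Without day 1 replicate 3 it called 5 members on day 3 against day 0 (17.3% of all genes), 5 on day 3 against day 1 (12.9%), 5 on day 7 against day 3 (24.4%) and 5 in the joint test (15.3%). Without day 3 replicate 1 it called 1, Slfn8, in the joint test (1.18%) and 0 in the other comparisons (0.0195% to 0.605%). Without both it called 4 on day 3 against day 0 (4.6%), 1, Slfn2, on day 5 against day 0 (1.25%), 1, Slfn2, on day 3 against day 1 (1.47%), 5 on day 7 against day 3 (4.26%) and 4 in the joint test (6.32%).

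Leaving out 1 tumor at a time gave these log2 ranges for fold changes that crossed 0. Day 3 against day 0 ran from -0.702 to 0.020 for Slfn3 and from -0.545 to 0.094 for Slfn9. Day 7 against day 0 ran from -0.620 to 0.220 for Slfn1, -0.155 to 0.320 for Slfn2, -0.176 to 0.664 for Slfn4, -0.130 to 0.079 for Slfn8 and -0.095 to 0.028 for Slfn9. Day 3 against day 1 ran from -0.686 to 1.588 for Slfn4 and from -0.032 to 0.697 for Slfn8. Day 7 against day 3 ran from -0.119 to 0.509 for Slfn9. Without both tumors the values were 0.016 for Slfn3 and 0.090 for Slfn9 on day 3 against day 0, 0.009 for Slfn8 on day 7 against day 0, 1.730 for Slfn4 on day 3 against day 1 and -0.112 for Slfn9 on day 7 against day 3. DESeq2 without day 3 replicate 1 gave 0.018 (Slfn3) and 0.092 (Slfn9) on day 3 against day 0, 0.026 (Slfn4) on day 3 against day 1 and -0.118 (Slfn9) on day 7 against day 3. Without day 1 replicate 3 it gave 1.603 for Slfn4 on day 3 against day 1. Without both it gave 0.020 (Slfn3), 0.095 (Slfn9), 1.742 (Slfn4) and -0.119 (Slfn9) for the same. Slfn8 on day 7 against day 0, reported as -0.003, was 0.006 with DESeq2, with DESeq2's size factors and with DESeq2 without either tumor, 0.008 with DESeq2 without both, 0.0 without a filter and 0.022 with only the compared days.

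A replicate block, with the replicate number beside the day, gave 0 calls of members in all 7 comparisons, and 2 in place of 4 members at an unadjusted p under 0.05 on day 1. Correlations of deviations between tumors of the same number ran from -0.619 to 0.511. Tumors of different numbers were not set beside them, so this range cannot show whether the numbers pair the tumors. Of the 77 pairs of member and list, 39 passed without the 2 farthest tumors and 44 as deviations from day means, against 56 as reported. With 3 tumors a day, the spread between tumors of days 1 and 3 limited the precision.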
